A study of Homo sapiens with 6 samples.

Results

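Caveolins and their coat proteins were followed through 5 genes, CAV1, CAV2, CAVIN1, CAVIN3 and EHD2, in a pancreatic cancer cell line grown with or without stellate cells. They are 5 of the 20046 genes named on the array. The array carried 8 probes annotated to these genes among its 47228 probes: 2 for CAV1, 3 for CAV2 and 1 each for CAVIN1, CAVIN3 and EHD2. The annotation gave the older symbols of both cavins, PTRF and PRKCDBP, a current name. Of the 8 probes, 7 from 4 genes were among the 18165 that passed the filter on dim probes, and the CAVIN3 probe was not. The genes were chosen with earlier results of these data in view, on the same contrast, so their values with and without stellate cells are a description and carry no test.

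The cells were Capan1, a single line of well differentiated human pancreatic cancer cells, and every sample came from an organotypic gel. Cancer cells were laid on a mix of type I collagen and Matrigel, which was raised onto a metal grid after 24 hours and fed from beneath, and frozen sections were cut on day 10. The cancer layer alone was taken by laser microdissection, and its RNA was read on Illumina expression BeadChips. In 3 samples the gel also held PS1, a pancreatic stellate cell line, and in 3 samples the titles name cancer cells only. One label lists PS1 for all 6 samples, against the titles of those 3, and each direction given here follows the titles. Both lines are single lines grown in culture, and nothing in the labels tells whether the replicates were separate cultures, so the spread between arrays may be technical.

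Caveolae are small flask-shaped pits of the plasma membrane, abundant in fibroblasts, endothelial cells, fat cells and muscle. Caveolins sit in the membrane as a hairpin and bind cholesterol, cavins coat the pit from the cytosol, and EHD2 encircles its neck. The pits flatten when the membrane is stretched and hold many receptors and signalling proteins, and CAV1 has been studied in both the cancer cells and the stroma of pancreatic tumours.

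Promoters are shown for the 3 genes that the RefSeq promoter table of the build GRCh38.p14 held at the gene's start, 2 whose probes read lower with stellate cells (CAV1 and CAV2) and 1 whose probe did not (EHD2). Each window runs from 250 bases before to 50 bases after the start, 5′ to 3′ on the plus strand, and the capitals mark GC boxes (GGGCGG on either strand). The CAV1 window is at chr7:116524759-116525058, the CAV2 window at chr7:116499488-116499787 and the EHD2 window at chr19:47713172-47713471.
CAV1: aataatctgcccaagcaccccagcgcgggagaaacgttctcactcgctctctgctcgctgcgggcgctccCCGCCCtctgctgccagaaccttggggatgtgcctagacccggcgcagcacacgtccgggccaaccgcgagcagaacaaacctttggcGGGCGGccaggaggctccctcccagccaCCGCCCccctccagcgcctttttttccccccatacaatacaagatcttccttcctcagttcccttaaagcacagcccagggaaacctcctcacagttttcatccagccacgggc
CAV2: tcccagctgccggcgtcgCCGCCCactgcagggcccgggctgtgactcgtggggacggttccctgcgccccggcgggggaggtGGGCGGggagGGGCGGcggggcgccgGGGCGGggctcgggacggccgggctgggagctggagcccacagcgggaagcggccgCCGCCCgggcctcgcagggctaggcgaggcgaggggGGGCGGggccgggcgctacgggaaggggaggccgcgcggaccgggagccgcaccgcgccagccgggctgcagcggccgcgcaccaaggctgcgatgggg
EHD2: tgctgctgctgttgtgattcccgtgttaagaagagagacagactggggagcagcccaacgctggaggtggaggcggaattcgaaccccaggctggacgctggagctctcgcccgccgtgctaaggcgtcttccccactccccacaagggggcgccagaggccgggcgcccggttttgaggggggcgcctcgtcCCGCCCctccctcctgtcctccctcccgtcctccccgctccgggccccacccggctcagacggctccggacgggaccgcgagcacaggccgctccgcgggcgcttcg
The CAV1 window held 3 GC boxes and was 62.3% G and C. The CAV2 window held 6 GC boxes at 82.7% G and C, and the EHD2 window held 1 at 71%. GC boxes were common in the table: 45% of its 35116 windows held at least 1, and their median G and C content was 58.7%. None of the 3 windows held a TATA box (TATAAA, in 11.5% of windows), a CCAAT box (CCAAT, in 34.6%), an AP-1 site (TGACTCA, in 4.95%) or a TEAD site (GGAATG, in 14%), searched on both strands. These are matches of letters in 1 window per gene, and the table listed 3 windows for CAV1 and 2 for CAV2. CAVIN1 is on chromosome 17 and CAVIN3 on chromosome 11.

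CAV1 encodes the scaffold protein of the caveolar coat, without which most cells form no caveolae. Probe ILMN_2149226 of CAV1 read a log2 normalized intensity of 6.41, 6.78 and 6.99 in replicates 1, 2 and 3 with stellate cells. Without them it read 8.38, 8.70 and 8.92. Every array with stellate cells was below every array without them, and the highest of the first was 1.40 below the lowest of the second. The group means were 6.73 ± 0.29 and 8.67 ± 0.27 (SD, n = 3 in each group here and below), a log2 difference of -1.94 ± 0.22 (SE from the fit over all probes). That is a level 3.84-fold lower with stellate cells. Counted from the lowest, its difference ranked 9 of the 18165 tested probes. The separation was also visible in the deposited signals before any normalization, which were 135, 241 and 185 with stellate cells against 570, 481 and 612 without.

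The other CAV1 probe, ILMN_1687583, is annotated to the same RefSeq transcript and gave a smaller difference. It read 5.25, 5.59 and 5.87 with stellate cells, where it was detected on 2 of 3 arrays. In the cancer cells alone it read 6.12, 6.26 and 5.93 and was detected on 3 of 3. The groups did not overlap, but the gap between them was 0.060. The log2 difference was -0.53 ± 0.25, or 1.44-fold, and without background correction it was -0.18. Both CAV1 probes were therefore lower on every array with stellate cells, by unequal amounts. Where along the transcript each probe lies is not given in the files used here.

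CAV2 encodes the second caveolin of non-muscle cells, which joins CAV1 in mixed oligomers and depends on it to leave the Golgi. Its 3 probes, annotated to 1 RefSeq transcript, were detected on all 6 arrays. ILMN_1735220 read 7.37, 7.28 and 7.11 with stellate cells and 8.27, 8.56 and 8.68 without, a gap of 0.90 between the groups. Its means of 7.25 ± 0.13 and 8.50 ± 0.21 differed by -1.25 ± 0.19, a level 2.38-fold lower. The probe ILMN_1658835 read 7.43, 7.65 and 6.88 with stellate cells against 8.09, 8.35 and 8.12 without. Its lowest array, replicate 3 with stellate cells, stood 0.44 below its group mean. The difference was -0.87 ± 0.22, or 1.82-fold. ILMN_2360730 read 6.77, 6.49 and 6.48 against 7.03, 7.18 and 7.25, a difference of -0.57 ± 0.20, or 1.49-fold. All 3 CAV2 probes thus read lower with stellate cells without overlap, and their differences spanned -1.25 to -0.57.

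CAVIN1, also known as PTRF, encodes the cavin that coats and stabilises caveolae, and its loss in mice and people leaves cells without them. Its probe ILMN_1757552 read 9.83, 10.42 and 10.21 with stellate cells and 11.11, 10.81 and 10.90 without. The groups did not overlap, with a gap of 0.39. The means were 10.16 ± 0.30 and 10.94 ± 0.16, a log2 difference of -0.79 ± 0.17 and a level 1.73-fold lower. The deposited signals were 707, 1724 and 969 with stellate cells against 3115, 1801 and 2153 without. There the nearest arrays of the groups, at 1724 and 1801, came closer, though the groups still did not overlap.

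CAVIN3, the cavin that binds CAVIN1 and was first described as a partner of protein kinase C delta, was near the detection limit. Its probe ILMN_1793476 was detected on 1 of 3 arrays with stellate cells, replicate 2, and on 0 of 3 without. The readings were 5.03, 5.29 and 4.97 with stellate cells and 5.09, 4.89 and 4.64 without. The groups overlapped and the means differed by 0.22. The probe was not above background on 5 of the 6 arrays, so these readings set no level for CAVIN3.

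EHD2 is the ATPase that holds caveolae at the membrane by oligomerising around their neck. Its probe ILMN_1808777 read 5.78, 6.06 and 5.82 with stellate cells and 6.02, 5.21 and 6.12 without. The groups overlapped, since replicate 2 without stellate cells, where the probe was not detected, lay below the other 5 arrays and the other 2 without stellate cells did not. The difference was 0.10 ± 0.28, smaller than its error, and its sign turned with array weights (-0.04) and without that array (-0.19). Under median scaling it was -0.02. That scaling moved the median of all tested probes to -0.20, and relative to that median EHD2 stood at 0.18.

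**Figure D1:**
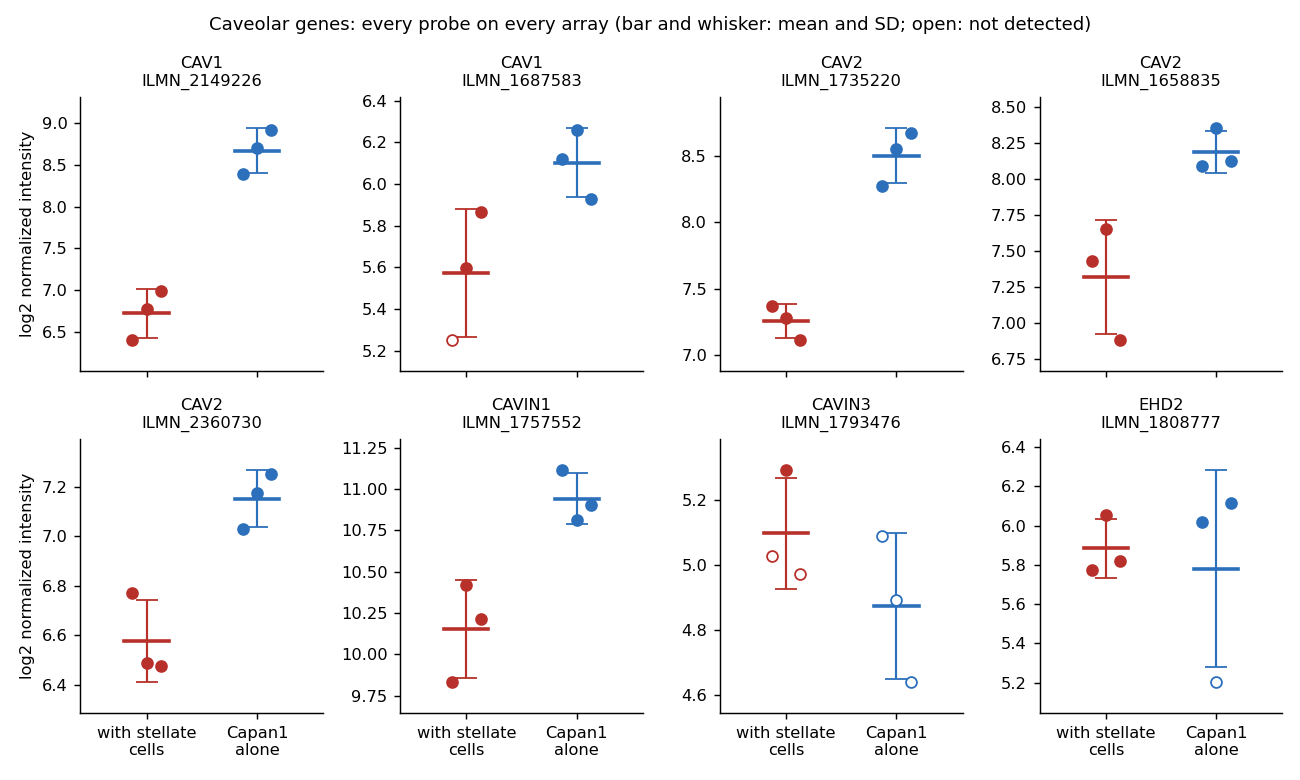
Each panel plots 1 probe, with log2 normalized intensity on the vertical axis (its range differs between panels) and the 2 groups on the horizontal axis; points are arrays (replicates 1 to 3 from left to right), open where the probe was not detected, and the bar and whisker give the mean and SD of 3 arrays. The groups are apart for both CAV1 probes, the 3 CAV2 probes and CAVIN1, and overlap for CAVIN3 and EHD2.

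Of the 7 tested probes, 6 lay lower with stellate cells without overlap between the groups, as 11.8% of all tested probes did, and none lay higher. Past the adjusted p threshold of 0.05 were 4 probes, all lower: 1 of CAV1, 2 of CAV2 and 1 of CAVIN1. Over all tested probes 2% passed in that direction and 4.02% in either. The genes were selected on this contrast, so nothing is read from these counts. The median difference of the 7 probes was -0.79, beside -0.013 over all tested probes, of which 51.5% lay below 0. Without replicate 1 of the stellate group, or without any 1 array of the other group, the count past the threshold was 2, and the probes left were ILMN_2149226 of CAV1 and ILMN_1735220 of CAV2. The same 2 were left without the intensity trend. Under median scaling and with no filter on dim probes the count was 3, without the CAV2 probe ILMN_1658835, and with array weights it was 5, with the other CAV1 probe added. The count over all tested probes moved too, from 730 to 392 without the intensity trend, 520 under median scaling and 3357 with array weights. It was 620 of 47228 with no filter, and 148 to 2728 with 1 array left out.

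**Figure D2:**
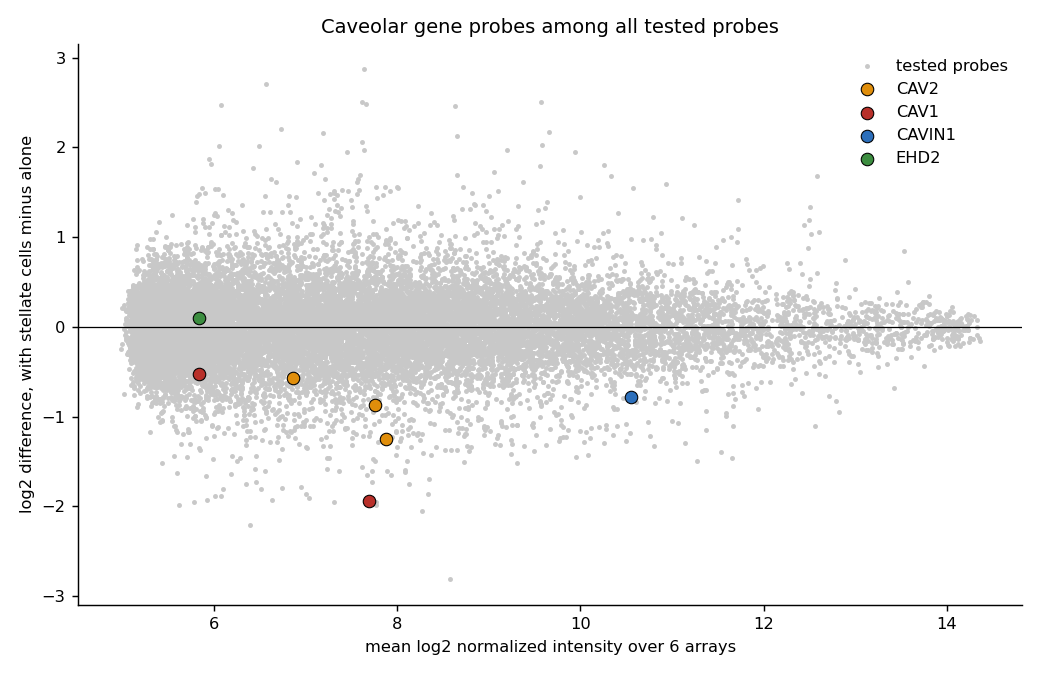
The log2 difference, with stellate cells minus alone (vertical axis), is plotted against the mean log2 normalized intensity over 6 arrays (horizontal axis) for the 18165 tested probes in grey, with the probes of CAV1, CAV2, CAVIN1 and EHD2 in colour. The CAV1 probe at -1.94 lies at the lower edge of the cloud, and the EHD2 probe at 0.10 lies within it.

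The size of the differences depended on how the arrays were processed. Without background correction the CAV1 probe ILMN_2149226 stood at -1.24 in place of -1.94, and the CAV2 probe ILMN_1735220 at -0.84 in place of -1.25. From the authors' deposited value table the same probes gave -1.33 and -0.89. Scaling the arrays to equal medians moved the median of all tested probes to -0.20. Under that scaling the CAV1 probe stood at -2.17, which was -1.96 relative to the shifted median, and the CAVIN1 probe at -1.05, or -0.85 relative to it. Over 18 alternatives for each of the 8 probes, 141 of the 144 values had the sign reported above, and the 3 exceptions were those of EHD2. The intensity trend, the replicate block, the probe filter and the threshold do not enter the difference, so those alternatives kept every sign by construction. The tally also includes CAVIN3, whose readings set no level.

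**Figure D3:**
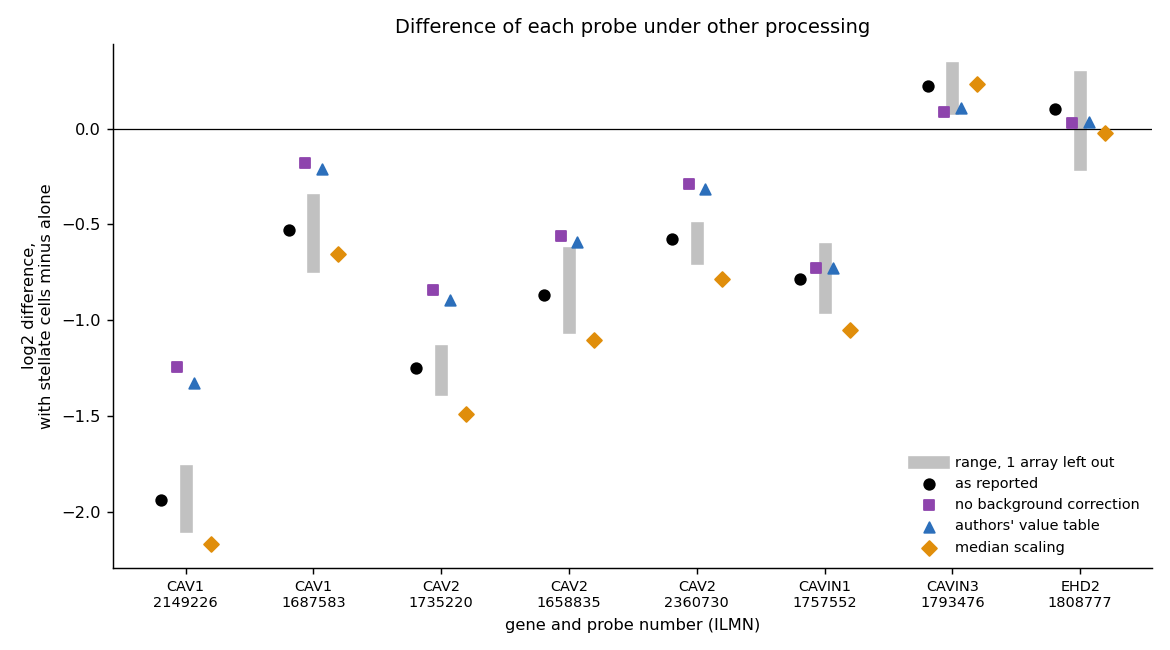
For each of the 8 probes (horizontal axis) the log2 difference, with stellate cells minus alone (vertical axis), is shown as reported and under 3 other treatments of the arrays, and the grey bar spans the values with 1 array left out at a time. The CAV1, CAV2 and CAVIN1 probes stay below 0 throughout, and EHD2 lies on both sides of it.

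The array that read lowest within a group differed between the genes. The CAV1 probe ILMN_2149226 was lowest in replicate 1 of both groups, with deviations from the group mean of -0.32 with stellate cells and -0.28 without. With stellate cells, the CAV2 probe ILMN_1735220 was lowest in replicate 3 (deviation -0.14) and the CAVIN1 probe in replicate 1 (deviation -0.32). In the cancer cells alone, CAV2 was lowest in replicate 1 (deviation -0.23) and CAVIN1 in replicate 2 (deviation -0.13). The likeness of 2 patterns was measured as the root mean square difference between log2 values centred on each probe's mean over the 6 arrays. CAV2 and CAVIN1 were closest at 0.38, CAV1 and CAV2 followed at 0.42, and CAV1 and EHD2 were farthest at 1.09. These distances also carry the size of the difference between groups, on which the genes were chosen.

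By the same measure over 6 arrays, the tested genes most like CAV1 were TNFRSF11B at 0.192, FAM72B at 0.223, NAV3 at 0.241, APOBEC3B at 0.266 and MANCR at 0.268. TNFRSF11B, which encodes the secreted decoy receptor osteoprotegerin, and NAV3, a microtubule-associated navigator protein, were detected on 0 of 3 arrays with stellate cells and on 3 of 3 without. Their readings with stellate cells are therefore only bounds, against the lowest detected level of each array or the probe's own where higher. By those bounds, which leave out the spread between arrays, TNFRSF11B was at least 3.02-fold lower and NAV3 at least 2.77-fold lower. Both bounds belong to the background-corrected values used here and were not recomputed under other processing. The distances of both genes to CAV1 partly rest on values at background. MANCR, a long noncoding RNA, was detected on 1 of 3 arrays with stellate cells and on 3 of 3 without, and read 5.18, 5.45 and 4.97 against 6.87, 7.01 and 7.14. APOBEC3B, a cytidine deaminase detected on all 6 arrays, differed by -1.65 ± 0.24 on the log2 scale. FAM72B differed by -1.59 ± 0.21, but it has near-identical copies in the genome, so its probe may read several of them. All 5 were picked by their likeness to CAV1 and so carry no test. How many of the 5 came back depended on the processing: 1 did without background correction, 2 with an offset of 50, 2 from the authors' value table, 4 under cyclic loess and 4 under median scaling, and 2 to 5 with 1 array left out.

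**Figure D4:**
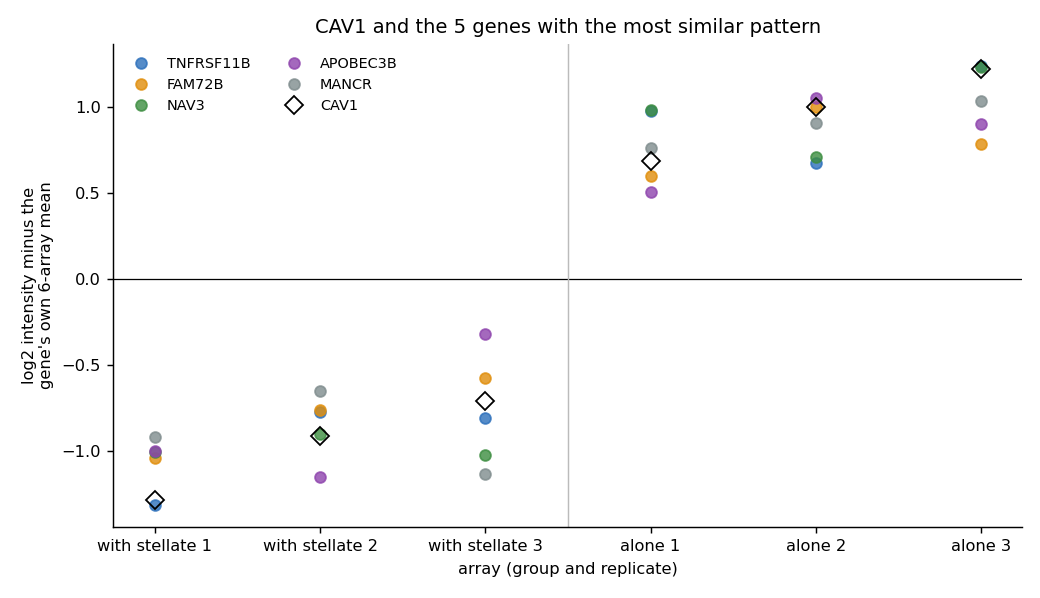
The 6 arrays stand on the horizontal axis, and the vertical axis gives log2 normalized intensity minus each gene's own mean over the 6 arrays, for the CAV1 probe ILMN_2149226 (open diamonds) and the 5 genes with the smallest distance to it. All 6 genes lie below 0 on the 3 arrays with stellate cells and above 0 on the 3 without; TNFRSF11B and NAV3 were not above background on the arrays with stellate cells.

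Nearest to CAV2 were TMPO, which encodes lamina-associated proteins, at 0.141, PRKAR1B, a regulatory subunit of protein kinase A, at 0.173, and USP13, a deubiquitinase, at 0.173. Their differences were -1.15 ± 0.23, -1.31 ± 0.22 and -1.21 ± 0.18. Closest to CAVIN1 were RPL39L, a ribosomal protein paralog, at 0.112, PLEK2, a pleckstrin family member, at 0.114, and SPOCD1 at 0.123. They differed by -0.70 ± 0.18, -0.74 ± 0.16 and -0.85 ± 0.25. The genes most like EHD2 were RBMS2, an RNA-binding protein, at 0.049, the kinase CDC42BPA at 0.092 and PIGQ, of glycolipid anchor synthesis, at 0.092. Their differences of 0.15 ± 0.27, 0.25 ± 0.26 and 0.13 ± 0.21 were all smaller than their errors.

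CAV1 and CAV2 lie next to each other on chromosome 7. In the RefSeq order of protein-coding genes TES precedes CAV2, and CAV1 is followed by MET, which encodes the receptor of hepatocyte growth factor. Both flanking genes were picked for their position after the caveolin values were seen. MET read 9.64 ± 0.16 with stellate cells and 9.92 ± 0.27 without, a difference of -0.28 ± 0.17 that did not pass limma's test (adjusted p = 0.43). TES, a focal adhesion protein detected on 2 arrays with stellate cells and 1 without, read 5.18 ± 0.34 and 5.26 ± 0.53, a difference of -0.09 ± 0.31 (limma adjusted p = 0.918). The groups overlapped for both genes.

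Other genes of caveolae, of the rival clathrin coat and of caveolin's described clients were taken from 5 lists of 69 genes, written with earlier results of these data known. Of these, 51 had a tested probe, and each gene was represented by its brightest. Limma's test, adjusted over all tested probes, found 2 of the 51 higher with stellate cells, FLOT1 and PRKCA, and 0 lower. That is 3.92% of them, beside 4.77% of all 10781 tested genes (2.65% higher and 2.11% lower). Their median difference was -0.020, beside 0.015 over all tested genes, and 24 of the 51 lay above 0 and 27 below. Genes named below only as the ends of a list's range were chosen after their values were seen.

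Of the other caveolar coat, neck and accessory genes, 6 of 11 were measured and none passed in either direction. Their median difference was 0.13, between -0.14 for EHD4 and 0.31 for PACSIN2, which bends the membrane at caveolae. EHD1, the endosomal relative of EHD2, read 10.26 ± 0.16 with stellate cells and 10.32 ± 0.07 without, a difference of -0.07 ± 0.15 (limma adjusted p = 0.855). EHD4 read 9.45 ± 0.25 and 9.59 ± 0.05 (limma adjusted p = 0.707). The muscle genes CAV3 and CAVIN4, the third non-muscle cavin CAVIN2, and PACSIN1 did not reach the filter, and FLNA was not analysed here.

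The flotillins and related membrane scaffold proteins held 1 of 9 measured genes past the threshold. FLOT1, a scaffold of cholesterol-rich membrane domains apart from caveolae, read 9.79, 9.96 and 9.87 with stellate cells and 9.39, 9.13 and 9.28 without. Every array with stellate cells was above every array without them, and FLOT1 rose 1.52-fold (log2 difference 0.60 ± 0.15, limma adjusted p = 0.045). Leaving out any 1 array other than replicate 3 with stellate cells ended this call, with an adjusted p of up to 0.186, as did median scaling (0.636), the replicate block (0.075) and 2 other settings. The list's median was 0.19 and its range ran from -0.39 for ERLIN1 to FLOT1. ANXA2, a calcium-dependent membrane-binding protein, differed by -0.17 ± 0.14 (limma adjusted p = 0.569). MAL2, a protein of apical transport, differed by 0.19 ± 0.16 (limma adjusted p = 0.581), with the opposite sign under median scaling (-0.07). That value lay above the median of all tested probes under the same scaling (-0.20).

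In the clathrin list 16 of 18 genes were measured and none passed in either direction. The median difference was -0.015, from -0.73 for AP2A1 to 0.37 for FCHO2. AP2S1, the small subunit of the AP-2 adaptor, differed by -0.12 ± 0.14 (limma adjusted p = 0.706). EPN1, an epsin that bends the membrane under the coat, differed by -0.01 ± 0.14 (limma adjusted p = 0.989), and its sign turned with array weights (0.04).

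Among receptors and signalling proteins described at caveolae or bound to caveolin, 1 of 11 measured genes of 20 listed passed. PRKCA, the alpha form of protein kinase C, read 9.38, 8.97 and 9.04 with stellate cells and 8.44, 8.39 and 8.20 without. No array of 1 group overlapped the other, and PRKCA rose 1.73-fold (log2 difference 0.79 ± 0.17, limma adjusted p = 0.0255). This call also ended when any 1 array other than replicate 3 with stellate cells was left out, with an adjusted p of up to 0.158, under median scaling (0.443) and without the intensity trend (0.0621). The epidermal growth factor receptor, EGFR, had the lowest difference of the list at -0.57 ± 0.18 (limma adjusted p = 0.111). The integrin subunit ITGB1 differed by 0.12 ± 0.16 (limma adjusted p = 0.75) and the TGF-beta receptor TGFBR2 by 0.16 ± 0.17 (limma adjusted p = 0.686). For each of those genes 1 of 2 probes lay below 0, and the sign turned under median scaling (-0.13 in both). Both values lay above the median of all tested probes under that scaling (-0.20).

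Targets and partners of YAP and TEAD, regulators that respond to membrane and cytoskeletal tension, passed in neither direction in the 9 of 11 genes measured. The median was -0.19, and the highest difference was 0.39 for CCN2. WWTR1 was detected on 0 of 3 arrays with stellate cells and 3 of 3 without, and did not pass the test (limma adjusted p = 0.0909). The same kind of bound put it 1.38-fold lower or more, leaving out the spread between arrays. Its log2 difference was -0.29 without background correction and -0.34 from the authors' value table, both smaller than that bound. The next lowest, CCN1, was measured in both groups and stood at -0.84 ± 0.27 (limma adjusted p = 0.111). CCN1 passed with array weights (limma adjusted p = 0.000364) and without replicate 3 with stellate cells (limma adjusted p = 0.000656). WWTR1 passed in the same settings (limma adjusted p = 0.0146 and 0.0206), but it reached the filter only through the arrays without stellate cells. The p-values of WWTR1 set signal against background, and nothing is read from them. YAP1 read 9.33 ± 0.03 with stellate cells and 9.53 ± 0.13 without (limma adjusted p = 0.543). TEAD4 differed by 0.02 ± 0.32 (limma adjusted p = 0.98), and its sign turned under median scaling (-0.23) and under cyclic loess. The median of all tested probes under median scaling was -0.20.

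**Figure D5:**
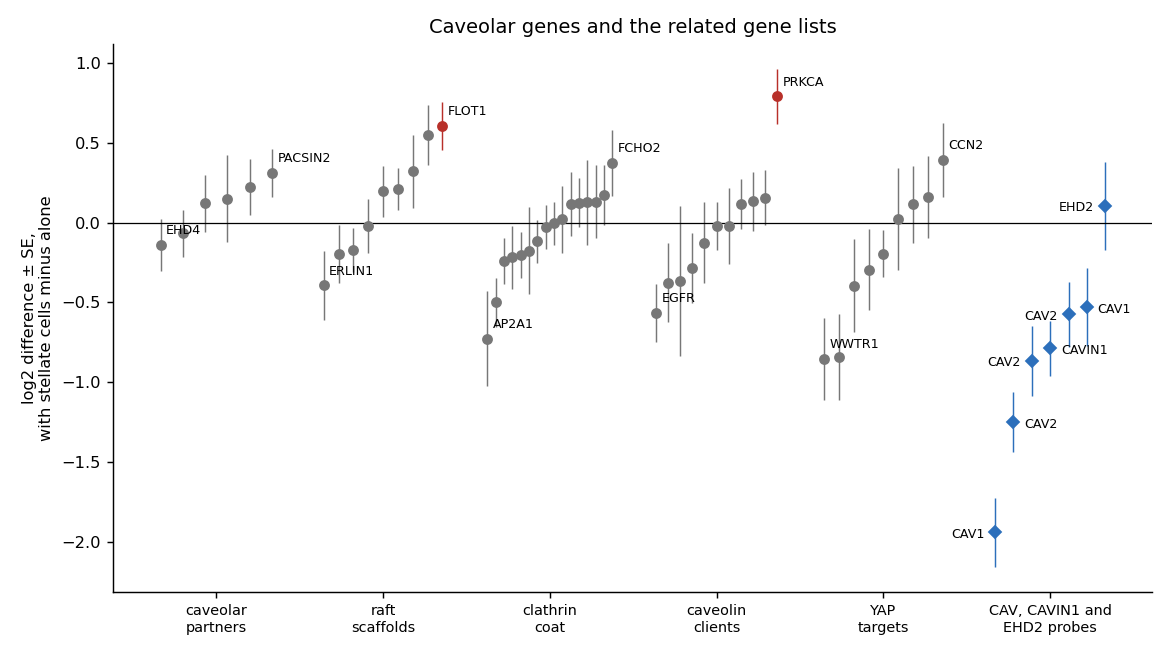
Each point is a gene of a related list, or a probe of CAV1, CAV2, CAVIN1 or EHD2 (diamonds), with its log2 difference, with stellate cells minus alone, and its SE on the vertical axis and the lists along the horizontal axis. Red marks the 2 genes past the threshold, FLOT1 and PRKCA, and the genes at the ends of each list are named; WWTR1 is drawn at its reading, which is at background with stellate cells.

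All 5 defining epithelial markers, KRT19, EPCAM, CDH1, KRT8 and KRT18, were detected on all 6 arrays, as were all 12 genes of the epithelial list. Of these 12, 2 were higher with stellate cells by limma's test and 0 lower. MUC1, a membrane mucin, rose by 1.19 ± 0.15 on the log2 scale (limma adjusted p = 0.0015), and ELF3, an epithelial transcription factor, by 1.07 ± 0.17 (limma adjusted p = 0.00485), a call that ended under median scaling (0.116). Their part in the caveolin differences was not tested. Of 9 defining stellate and fibroblast markers, COL1A2, LUM, THY1, PDGFRB and FAP were detected on no array. COL1A1 reached detection on 2 arrays of the stellate group and 3 of the other, DCN on 2 of the stellate group, and COL3A1 and POSTN on 1 array each. Of the whole stellate list of 21, 9 were detected on no array, 6 reached the filter, and none of those 6 passed the test in either direction. They were COL1A1, COL6A3, ACTA2, TAGLN, VIM and S100A4. TAGLN, an actin-binding protein, was detected on 3 of 3 arrays with stellate cells and 0 of 3 without (reading 0.87 apart, limma adjusted p = 0.0674). ACTA2, smooth muscle actin, differed the other way by -1.04 ± 0.27 (limma adjusted p = 0.0526). TAGLN passed under cyclic loess, without the intensity trend and with array weights. It reached the filter only through its 3 arrays with stellate cells. Its p-values therefore set signal against background, and nothing is read from them. ACTA2 passed under median scaling, with array weights, with the replicate block and without replicate 3 of the stellate group. VIM was detected on all 6 arrays, with a difference of -0.07 ± 0.28 (limma adjusted p = 0.928) whose sign turned with array weights (0.10). S100A4, also on all 6, had means of 13.87 and 13.60 (limma adjusted p = 0.417), and it passed with array weights (limma adjusted p = 0.0427). The summed normalized intensity of the 21 was 12771 to 19130 with stellate cells and 11839 to 14312 without. Nearly all of that was S100A4, and without it the sums were 652 to 775 and 690 to 735. The markers named here outside the defining ones were chosen after their values were seen. Fewer cells of a type and less RNA per cell cannot be told apart in such samples.

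The arrays differed in depth, with 16325 to 19602 probes detected and a median deposited signal of 94.2 to 139. The mean deposited signal was 273, 449 and 335 with stellate cells and 494, 384 and 414 without. The deposited signals of single probes given above carry these differences between arrays. Replicate 3 with stellate cells stood apart in ribosomal RNA, with 12.85 on the probe ILMN_3251587 against 5.97 to 8.32 on the other 5 arrays. Without that array the CAV1 probes stood at -2.08 and -0.71, the CAV2 probes at -1.18, -0.65 and -0.53, CAVIN1 at -0.81, EHD2 at 0.14 and CAVIN3 at 0.30. The same 4 probes lay past the threshold without it, where 2728 of 17764 tested probes did, against 730 of 18165 with it.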

How the data were processed

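Gene expression was measured on 6 Illumina arrays, 3 in each group, and samples were grouped by their titles. The table the authors deposited gives, per the file headers, an intensity and a detection p-value of every probe on every array, with no normalization between arrays. The submitters' processing notes name BeadStudio and GenomeStudio 2011.1, with no order or settings of the steps. An alternative was the authors' deposited value table, whose intensity values were linear, uncentred, ranked as the signals were and had column medians of 123.

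From the signals, background was corrected by normexp with control levels inferred from the detection p-values (770 steps), an offset of 16 was added, and values were quantile normalized and taken to log2. A probe was kept if 3 or more of the 6 arrays had a detection p below 0.05. The groups were compared by limma 3.58.1 in R 4.3.3 (lmFit, then eBayes with an intensity trend). The test was two-sided, and p-values were adjusted by the Benjamini-Hochberg method across the 18165 tested probes. The fit gave the SE of each difference. The number of arrays limits the precision. Data were simulated for this comparison over 18165 probes, with 100 changed at each size. The fit recovered 43% of changes of 1 on the log2 scale and 86% of changes of 2, with 6 false calls. How many probes changed in the measured data is not known, so the shares recovered there may differ. Figures were drawn with matplotlib 3.10.9.

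Probes were named through the platform's annotation and a RefSeq table of GRCh38.p14. Of all probes 30112 had 1 gene symbol, 8 several and 17108 none. The 5 genes and all lists were chosen with earlier results of these data known. Named were all probes of the 5 genes, every list gene past the threshold, the 2 brightest genes of each list, the defining markers, and the 5 (CAV1) or 3 (other) genes of most similar pattern. Replicate numbers gave no sign of pairing: correlations of deviations from the group means were -0.024, -0.031 and 0.080. With 3 arrays in each group these values cannot settle whether the samples were paired.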

Additional observations from a re-analysis of the deposited data

How the results depend on the processing

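The alternatives changed 1 choice at a time, except that the authors' value table replaced background correction, normalization and floor together. The other choices were background correction, offset, normalization, variance model, array weights, the replicate block, the filter on dim probes, the threshold, and each array left out in turn. Without background correction the CAV1 probes stood at -1.24 and -0.18 and the CAV2 probes at -0.84, -0.56 and -0.29. With an offset of 50, CAV1 probe ILMN_2149226 stood at -1.65. Median scaling gave CAV2 values of -1.49 (ILMN_1735220) and -0.79 (ILMN_2360730) and -1.05 for CAVIN1. The authors' value table gave -1.33 and -0.21 for CAV1 and -0.89 and -0.32 for CAV2 probes ILMN_1735220 and ILMN_2360730. The probes ILMN_2149226 and ILMN_1735220 lay past the threshold in every setting run. The genes were chosen on this contrast, so this is a description and no support for the calls. The count of caveolar probes past the threshold was 2 without the intensity trend, 3 under median scaling, 3 with no filter, 5 with array weights and 2 to 4 with 1 array left out.

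The count over all tested probes was 730, and it was 392 without the intensity trend, 3357 with array weights, 1282 at an adjusted p under 0.1, and 148 to 2728 with 1 array left out, the lowest without replicate 3 of the cancer cells alone and the highest without replicate 3 with stellate cells. With the replicate block it was 783, and the block ended the call of FLOT1 and of no caveolar probe. Median scaling gave 520 calls, of which 84% were lower, against 49.9% as reported. Of the related genes, 2 passed as reported, 0 under median scaling, 0 without the intensity trend, 8 with array weights, 1 with the replicate block, 1 with no filter, 4 at an adjusted p under 0.1, and 0 to 8 with 1 array left out. Signs also turned for small differences, each with an adjusted p far above the threshold. Under cyclic loess TEAD4 was -0.0033 and TES 0.0036. Under median scaling MAL2 was -0.067, TGFBR2 -0.126, ITGB1 -0.126 and TEAD4 -0.230. The median of all tested probes was -0.20 under that scaling, so MAL2, TGFBR2 and ITGB1 lay above it and TEAD4 below it. With array weights EPN1 was 0.036, VIM 0.098 and TEAD4 -0.343. With 1 array left out EHD4 ranged from -0.225 to 0.00076, EHD1 from -0.151 to 0.015, EPN1 from -0.061 to 0.055, ITGB1 from -0.020 to 0.244, VIM from -0.241 to 0.228, and TEAD4 from -0.328 to 0.221. TES was tested in only 3 of those 6 fits, where it ranged from -0.339 to 0.113. The cause of these shifts was not tested. CAVIN3 did not reach the filter, and the difference of EHD2, detected on 5 of 6 arrays, was smaller than its error.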
